A study of Mus musculus with 12 samples.

Results

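The immediate-early response genes described here are Fos, Fosb, Jun, Junb, Jund, Egr1, Ier2, Ier3, Atf3 and Dusp1. They are listed by name, as immediate-early genes with short-lived mRNAs, under a rule that uses no measured value. The list was chosen with earlier results of these data known. All 10 were found by their GENCODE symbols among the 51467 gene identifiers of the count table. Mouse embryonic stem cells (ESCs), either wild-type (WT) or lacking Dgcr8 (Dgcr8 KO), were exposed for 30 min to 500 uM 4-thiouridine (4sU), a uridine analogue that growing transcripts take up, and the RNA of every sample was divided. The RNA that had taken up 4sU was biotinylated and captured as a measure of nascent transcription (4sU libraries), and RNA depleted of ribosomal RNA gave the measure of steady-state mRNA (total libraries). There were 4 groups of 3 libraries: WT 4sU, WT total, Dgcr8 KO 4sU and Dgcr8 KO total. DGCR8 is the RNA-binding partner of the nuclear RNase DROSHA, and cells without it cannot process most primary microRNA transcripts. All groups, WT included, grew with serum, LIF and the inhibitors PD0325901 (against MEK) and CHIR99021 (against GSK3), and all received 4sU. Each genotype is represented by a single ESC line, so the effect of Dgcr8 loss and other differences between the lines cannot be told apart. Replicates carry only numbers in the labels, so p-values measure the spread between these samples, which may be partly technical.

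Immediate-early genes are transcribed within minutes of a growth factor, serum or stress signal, with no need for new protein synthesis. The signal travels through MAP kinases such as ERK to factors already present in the nucleus, among them SRF with its ELK partners and CREB. Most of these mRNAs decay quickly, many of them through AU-rich elements in the 3′ UTR, so that a burst of transcription gives a brief pulse of mRNA. FOS and JUN proteins pair to form the transcription factor AP-1, and DUSP1 is a phosphatase that switches the MAP kinases off again.

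The libraries held 4593914 to 6005526 counts for 4sU RNA and 6873708 to 9295245 counts for total RNA. Dgcr8 itself was at 101 ± 9.26 CPM in WT total RNA and 33.1 ± 1.08 CPM in Dgcr8 KO total RNA (SD, n = 3), where CPM are read counts scaled to library size and TMM factor. All 8 ESC marker genes were measured above the low-count filter and none was called between genotypes in either RNA. Over all genes 9.5% were called higher and 5.27% lower in 4sU RNA, and 9.33% and 7.83% in total RNA. At an adjusted p below 0.05 alone, 6 of the 8 were higher and 1 lower in 4sU RNA, against 28.3% and 28.0% of all genes. In total RNA 3 were higher and 5 lower, against 27.2% and 36.7%. None of 6 fibroblast feeder markers passed that filter, and their summed level was at most 3.75 CPM in any library. Of the other markers, 2 of 4 for primitive endoderm and 3 of 4 for primed epiblast passed. Pdgfra was called higher in total RNA of Dgcr8 KO, Otx2 was called higher in 4sU RNA, and Pou3f1 was called lower in both. The summed primed epiblast level was 65.8 to 69.8 CPM in WT 4sU and 73.1 to 82 CPM in Dgcr8 KO 4sU libraries, and 131 to 143 CPM against 88.7 to 92.9 CPM in total libraries. The part of such cells in the results below was not tested, and in bulk RNA fewer cells of a type and less RNA per cell cannot be told apart.

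Copies of ATTTA, a motif of AU-rich elements, are shown first, because the members are best known for short-lived mRNAs. A window with 1 ATTTA, as for Junb and Jund, need not be an AU-rich element. Windows of Fosb and Atf3, which also hold 1 ATTTA each, and of Egr1 are not printed. The printed set is thus not a selection by AU content. The windows below are the 30 bases with the most copies of ATTTA, then the most A and T, in the longest GENCODE M21 3′ UTR of 6 members (mm10). Capitals mark each ATTTA.
Fos, chr12:85477094-85477123, plus strand: tttttattgtgttttcaATTTATTTAttaa
Jun, chr4:95049204-95049233, minus strand: ATTTAtaatcataggaaagATTTAgtaatt
Junb, chr8:84977138-84977167, minus strand: atattgaatataatatatttgtgtATTTAa
Jund, chr8:70700370-70700399, plus strand: tATTTAtgtttctactcgggaacaaacgtt
Ier3, chr17:35822483-35822512, plus strand: tctaattaatATTTAtgtATTTAtgtatat
Dusp1, chr17:26506164-26506193, minus strand: tcatgggagctggtccttATTTATTTAaca

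The number of ATTTA pentamers in the 3′ UTR was 5 for Ier3, 4 each for Fos, Jun and Dusp1, 3 for Atf3, 2 each for Junb and Egr1, 1 each for Fosb and Jund, and 0 for Ier2. Of 11821 tested protein-coding genes with a 3′ UTR, 71.2% hold at least 1 ATTTA, so its presence does not set these genes apart. Per length the members ranged widely. Ier3 held 8.16 copies per kb, Dusp1 5.8, Fos 4.91, Junb 4.12, Jun 3.24, Atf3 2.53, Jund 1.88 and Egr1 1.64, against a median of 1.21 per kb over those genes. Fosb at 0.434 per kb and Ier2 at 0 lay below that median. The longer motif TTATTTATT, found in 8.18% of the 3′ UTRs, was present once in Fos and 2 times in Dusp1 and in no other member. Of the members, Jun, Junb, Jund and Ier2 have 1 exon, as do 2.6% of the tested protein-coding genes, whose median is 8 exons.

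Sites for the ESCC microRNAs are shown because these microRNAs, the miR-290 family of naive ESCs and the related miR-302 family, need DGCR8 for their processing. Their mature sequences from RefSeq (GRCm38.p6) are printed with the seed, bases 2 to 8, in capitals, and those shown share the seed AAGUGCU.
mmu-miR-291a-3p, chr7:3218968-3218989, plus strand: aAAGUGCUuccacuuugugugc
mmu-miR-294-3p, chr7:3220691-3220712, plus strand: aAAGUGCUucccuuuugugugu
mmu-miR-295-3p, chr7:3220815-3220837, plus strand: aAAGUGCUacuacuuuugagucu
mmu-miR-302b-3p, chr3:127545275-127545297, plus strand: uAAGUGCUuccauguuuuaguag
The hexamer GCACTT, which pairs with the first 6 bases of that seed, is in capitals in the following 3′ UTR windows (mm10).
Fosb, chr7:19303298-19303327, minus strand: ggttcccaaaaaGCACTTatatctattatg
Junb, chr8:84976990-84977019, minus strand: gagaagaaacacGCACTTcgtgtctaaagt
Ier3, chr17:35822713-35822742, plus strand: ctccgtcttccaGCACTTcaactctgtagt
Atf3, chr1:191171373-191171402, minus strand: ctggcttcctgtGCACTTctagaatcccag
Atf3, chr1:191170513-191170542, minus strand: gggatgttaatgGCACTTttgtcttgtagc

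Of the 10 members, 4 held GCACTT, a motif found in 35.5% of the 3′ UTRs. The longer forms AGCACTT or GCACTTA, found in 22.3% of 3′ UTRs, occurred in Fosb and Ier3. Fos, Jun, Jund, Egr1, Ier2 and Dusp1 held none of these. RefSeq promoter windows, 250 bases before to 50 after the gene start, were at hand for 8 members, all but Ier2 and Egr1. Sites outside these windows were not searched. Among these, Dusp1 was alone in holding TGACGTCA, the full cyclic AMP response element that CREB and ATF proteins bind, which was present in 1.79% of 32817 windows. It is shown in capitals, 143 bases before the start (GRCm38.p6).
Dusp1, chr17:26508597-26508626, minus strand: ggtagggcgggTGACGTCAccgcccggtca
A CArG box, the SRF site, was in 0 of the 8 windows and in 1.63% of all windows. The AP-1 site TGACTCA, or TGAGTCA on the other strand, was in 0 of the 8 and in 5.2% of all windows. The RefSeq window of Jund lies upstream of the gene start in the count table and that of Atf3 lies inside the gene as counted, downstream of its start.

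Genotypes were compared in nascent RNA to ask whether transcription of the immediate-early genes changed without Dgcr8. The 4sU signal rose for nearly all of them. Because most of these mRNAs decay quickly, decay during labelling could also affect this signal. The part of such decay in the changes was not tested. Junb rose 5.48-fold, Jun 4.91-fold, Jund 3.57-fold, Fos 3.09-fold and Dusp1 2.61-fold, Atf3 and Ier2 rose by less than the 2-fold limit, and Ier3 did not pass the test. In steady-state RNA the changes were smaller, with Jun up 3.56-fold, Fos 2.49-fold and Junb 2.26-fold, Jund and Dusp1 rising below the limit, Ier3 falling, and Ier2 and Atf3 not passing the test. A call required a log2 change beyond 1 in either direction and an adjusted p (Benjamini-Hochberg) below 0.05 in a limma voom fit of all 12 libraries, and a change is described as a rise or fall where the adjusted p alone passed. The fit used 14033 genes with at least 3 CPM in at least 3 libraries. Fos, Jun, Junb, Jund, Ier2, Ier3, Atf3 and Dusp1 passed this filter with the libraries of each genotype, Fosb passed through the Dgcr8 KO 4sU libraries alone and so had to differ there, and Egr1 did not pass.

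In 4sU RNA, 5 of these 8 members were called higher in Dgcr8 KO and 0 lower, where 9.5% of all tested genes were called higher and 5.27% lower. At the adjusted p alone, 7 of 8 were higher, against 28.3% of all genes, and in the same 7 every Dgcr8 KO library lay above every WT library, against 29.6% of all genes. In total RNA, 3 of 8 were called higher and 0 lower, against 9.33% and 7.83% of all genes. At the adjusted p alone, 5 of 8 were higher in total RNA, against 27.2% of all genes. The change in the ratio of total to 4sU signal, the measure of mRNA stability in this design, was called lower in 2 of 8 and higher in 0 of 8, against 0.969% and 0.791% of all genes, and at the adjusted p alone it was lower in 5 of 8, against 11.1%. The ratio equals stability only if mRNA levels were steady during labelling, and no time course was analysed here to show that.

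**Figure D1:**
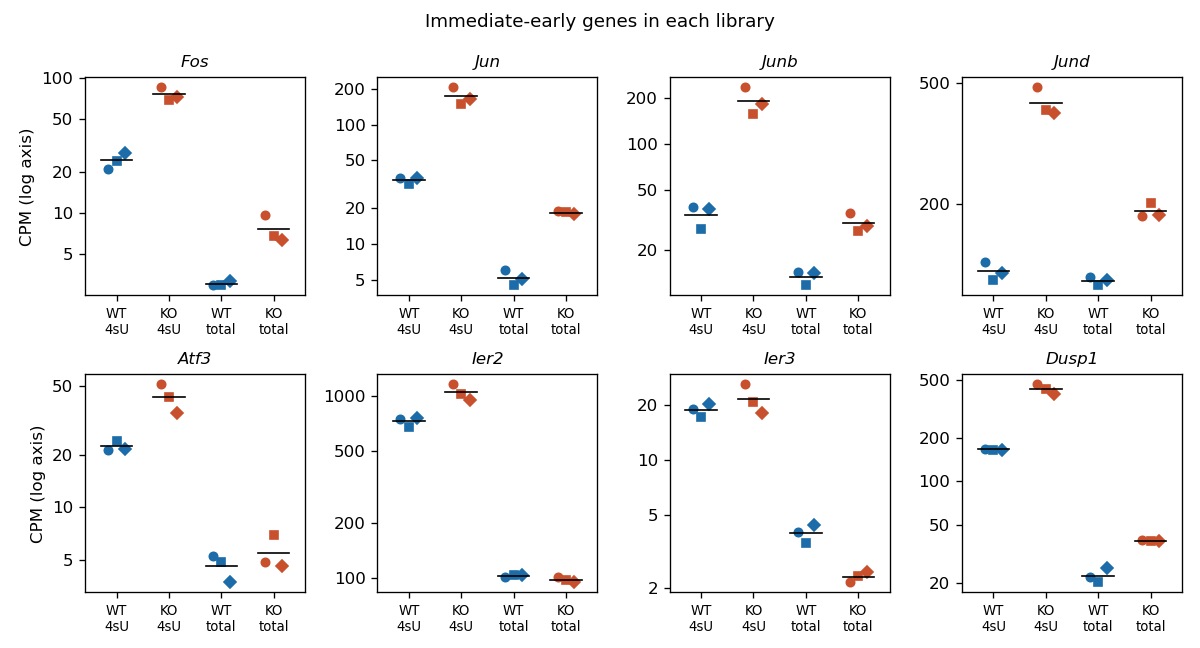
CPM of 8 immediate-early genes on a log axis in every library, with WT in blue, Dgcr8 KO in orange, circles, squares and diamonds for replicates 1, 2 and 3, and black lines for group means. The 3 Dgcr8 KO 4sU libraries lie above the 3 WT 4sU libraries for every gene but Ier3, and total RNA lies far below 4sU RNA for every gene but Jund in WT.

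Fos (ENSMUSG00000021250.13, mm10 chromosome 12, 85473890 to 85477273, plus strand), the founding partner of JUN in AP-1, had 21.3, 24.3 and 27.8 CPM in the WT 4sU libraries and 85.3, 68.5 and 72.3 CPM in the Dgcr8 KO 4sU libraries. Its total RNA was at 2.95, 2.91 and 3.12 CPM in WT and 9.66, 6.71 and 6.32 CPM in Dgcr8 KO. The lowest Dgcr8 KO library lay more than 2-fold above the highest WT library in both RNAs. The log2 change was 1.63 in 4sU RNA (SE 0.112, limma adjusted p = 9.23e-14) and 1.32 in total RNA (SE 0.258, limma adjusted p = 4.34e-05). The total RNA value rests on few reads, 19 to 27 counts per WT library.

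Fosb (chromosome 7, 19302696 to 19310051, minus strand), a paralogue of Fos, was scarcely expressed. Its counts were 9, 5 and 9 in WT 4sU, 21, 16 and 17 in Dgcr8 KO 4sU, 0, 2 and 0 in WT total and 5, 2 and 2 in Dgcr8 KO total libraries. Since Fosb entered the fit through its Dgcr8 KO 4sU libraries, these counts are given as a description with no test. No fold is given for total RNA or for the ratio between genotypes, because every WT total library lay at or under the floor of 3 counts.

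Jun (ENSMUSG00000052684.4, chromosome 4, 95049034 to 95052222, minus strand), the core AP-1 subunit, had 35.7, 32 and 35.8 CPM in WT 4sU and 206, 149 and 162 CPM in Dgcr8 KO 4sU libraries. In total RNA it had 6.06, 4.49 and 5.09 CPM in WT and 18.8, 18.6 and 17.7 CPM in Dgcr8 KO. The groups were well separated in both RNAs. Jun changed by 2.30 in 4sU RNA (log2, SE 0.104, limma adjusted p = 3.07e-18) and by 1.83 in total RNA (SE 0.209, limma adjusted p = 3.84e-09), the largest total change among the 8 members.

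Junb (ENSMUSG00000052837.6, chromosome 8, 84976910 to 84978718, minus strand), a JUN paralogue with weaker activation on its own, showed the largest nascent change of the 8. Its 4sU levels were 38.2, 27.5 and 37.2 CPM in WT and 236, 158 and 181 CPM in Dgcr8 KO. Its total levels were 14.4, 11.8 and 14.2 CPM in WT and 34.9, 27 and 28.9 CPM in Dgcr8 KO. Neither pair of groups overlapped. The log2 change was 2.45 in 4sU RNA (SE 0.128, limma adjusted p = 1.10e-16) but 1.18 in total RNA (SE 0.175, limma adjusted p = 5.86e-07).

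Jund (ENSMUSG00000071076.6, chromosome 8, 70698949 to 70700616, plus strand), the JUN paralogue that many cell types express without stimulation, behaved like Junb at a higher level. Its 4sU levels were 129, 113 and 118 CPM in WT and 486, 409 and 399 CPM in Dgcr8 KO. Its total levels were 115, 108 and 112 CPM in WT and 183, 201 and 184 CPM in Dgcr8 KO. WT Jund thus stood at nearly the same CPM in both kinds of library, unlike every other member, while in Dgcr8 KO the 4sU level was the higher by far. The log2 change was 1.84 in 4sU RNA (SE 0.0693, limma adjusted p = 3.09e-20) and 0.76 in total RNA (SE 0.0689, limma adjusted p = 2.54e-11).

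Atf3 (chromosome 1, 191170296 to 191218039, minus strand) encodes a stress-induced bZIP factor that can pair with JUN proteins. Its 4sU levels rose from 21.4, 24.1 and 21.8 CPM in WT to 51.3, 43.3 and 34.8 CPM in Dgcr8 KO, which is 0.93 in log2 units (SE 0.127, limma adjusted p = 2.32e-07). Its total levels were 5.28, 4.85 and 3.7 CPM in WT and 4.83, 6.97 and 4.6 CPM in Dgcr8 KO. The total libraries overlapped between genotypes, and the log2 change was 0.25 (SE 0.248, limma adjusted p = 0.381).

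Egr1 (chromosome 18, 34859823 to 34864984, plus strand), a zinc finger factor that responds strongly to ERK signalling, was near the limit of detection. Its counts were 15, 7 and 12 in WT 4sU, 40, 13 and 50 in Dgcr8 KO 4sU, 2, 0 and 2 in WT total and 3, 2 and 7 in Dgcr8 KO total libraries. In CPM, Dgcr8 KO replicate 2 (2.47) lay next to the highest WT library (2.4), and the other Dgcr8 KO 4sU libraries were far above WT. With every gene of at least 1 count in the fit, its log2 change in 4sU RNA was 1.49 (SE 0.486, limma adjusted p = 0.0242). The quasi-likelihood test of edgeR on the same genes, added after the data were seen, gave 1.71 (edgeR adjusted p = 4.86e-07). That p is not relied on. For Jun the same edgeR fit gave an adjusted p of 8.97e-153, against 8.15e-21 with the filter, so it likely understates the spread. Total RNA of Egr1 was too scarce for a comparison of genotypes.

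Ier2 (ENSMUSG00000053560.4, chromosome 8, 84661331 to 84662852, minus strand), a small nuclear protein of the primary response, was the most abundant member in 4sU RNA. Its 4sU levels were 743, 676 and 758 CPM in WT and 1158, 1018 and 951 CPM in Dgcr8 KO. Its total levels were 101, 104 and 104 CPM in WT and 102, 98.5 and 94.9 CPM in Dgcr8 KO. The 4sU libraries did not overlap between genotypes, whereas the total libraries did. Nascent Ier2 rose by 0.52 (log2, SE 0.0535, limma adjusted p = 1.04e-09), and total Ier2 changed by -0.07 (SE 0.076, limma adjusted p = 0.423).

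Ier3 (chromosome 17, 35821684 to 35822923, plus strand), a regulator of cell survival and of ERK signalling, was the only member of the 8 to fall in total RNA. Its 4sU levels were 19, 17.3 and 20.4 CPM in WT and 26.1, 20.9 and 18.2 CPM in Dgcr8 KO, with overlapping groups. Its total levels were 4.04, 3.52 and 4.39 CPM in WT and 2.13, 2.32 and 2.44 CPM in Dgcr8 KO, with every Dgcr8 KO library below every WT library. The log2 change was 0.18 in 4sU RNA (SE 0.131, limma adjusted p = 0.255) and -0.78 in total RNA (SE 0.279, limma adjusted p = 0.0151), the latter on 17 to 19 counts per Dgcr8 KO library. Without WT replicate 3 the total change was -0.71 (limma adjusted p = 0.0546).

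Dusp1 (ENSMUSG00000024190.6, chromosome 17, 26505590 to 26508519, minus strand), the feedback phosphatase, rose in both RNAs. Its 4sU levels were 167, 165 and 166 CPM in WT and 469, 431 and 404 CPM in Dgcr8 KO. Its total levels were 21.9, 20 and 25.1 CPM in WT and 39.1, 38.7 and 38.9 CPM in Dgcr8 KO. Both pairs of groups were apart. Dusp1 rose by 1.38 in 4sU RNA (log2, SE 0.0586, limma adjusted p = 6.20e-19) and by 0.80 in total RNA (SE 0.1, limma adjusted p = 2.49e-08).

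**Figure D2:**
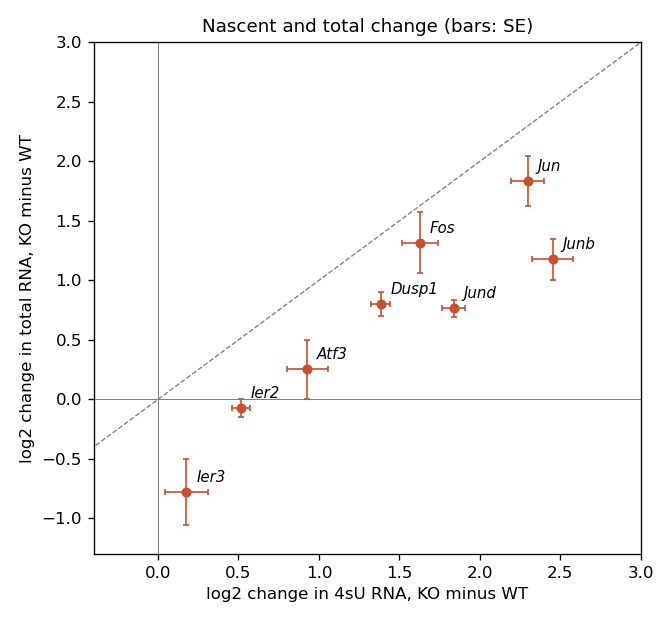
Log2 change of 8 members between Dgcr8 KO and WT in 4sU RNA (x axis) and in total RNA (y axis), from limma voom with bars of 1 SE, and the dashed line marking equal change. All 8 points lie below the line, with Junb at 2.45 against 1.18 and Jund at 1.84 against 0.76.

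Levels of different genes were compared per length, as TPM, a length-scaled abundance with the same sum in every library. In WT 4sU RNA, Ier2 stood at 554 ± 59.3 TPM (SD, n = 3), followed by Dusp1 at 97.2 ± 10.2 and Jund at 83.4 ± 4.6, whose ranges overlapped. Junb at 21.9 ± 3.23 and Ier3 at 19.4 ± 2.57 TPM overlapped below them. Fos at 13.6 ± 3.07, Jun at 12.6 ± 1.23 and Atf3 at 12.2 ± 1.94 TPM overlapped in turn, and Egr1 and Fosb overlapped at 0.511 ± 0.0942 and 0.416 ± 0.092 TPM. In Dgcr8 KO 4sU RNA the order became Ier2 at 908 ± 69, Jund at 343 ± 31.9, Dusp1 at 289 ± 14.3, Junb at 141 ± 28.2, Jun at 71.6 ± 11.8 and Fos at 47.5 ± 5.29 TPM, with no overlap between neighbours. Atf3 at 26.5 ± 4.2 and Ier3 at 25.4 ± 3.97 TPM overlapped below them. In WT total RNA, Ier2 at 128 ± 2.05 and Jund at 126 ± 4.25 TPM overlapped at the top, while in Dgcr8 KO total RNA Jund at 231 ± 11.2 TPM was above Ier2 at 131 ± 2.66 TPM in every library. Below these came Dusp1 at 21.1 ± 2.47 and Junb at 14 ± 1.58 TPM in WT and 39.8 ± 0.811 and 34 ± 4.49 TPM in Dgcr8 KO total RNA, and the other members were under 12 TPM in total RNA of either genotype.

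The ratio of total to 4sU signal was then compared in each genotype to place the members among all genes. It was low for all 8 but Jund. A low ratio is no independent result here, because the members were listed for short-lived mRNAs. Because the scaling of counts moves all ratios together, log2 ratios are given relative to the median of the 14033 genes. In WT they were -3.07 for Fos, -2.98 for Dusp1, -2.89 for Ier2, -2.83 for Jun, -2.38 for Atf3, -2.32 for Ier3, -1.44 for Junb and -0.19 for Jund. All but Junb and Jund thus lay more than 2 log2 units below the median gene. In Dgcr8 KO the values were -3.48 for Dusp1, -3.40 for Ier2, -3.30 for Fos, -3.21 for Jun, -3.20 for Ier3, -2.97 for Atf3, -2.64 for Junb and -1.18 for Jund. The median over the 8 was -2.61 in WT and -3.20 in Dgcr8 KO.

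Total signal was called below 4sU signal for 7 of 8 members in WT, where 25.0% of all genes were, and for 8 of 8 in Dgcr8 KO, where 27.1% of all genes were. The exception in WT was Jund, with a log2 ratio of -0.11 before centring (SE 0.0753, limma adjusted p = 0.178). Jund lay at percentile 44.5 of all genes in WT and at 24.3 in Dgcr8 KO. The other 7 lay at percentiles 5.73 to 20.1 in WT and 3.01 to 8.98 in Dgcr8 KO. Among protein-coding genes alone they lay lower, at percentiles 0.917 to 9.5 in WT and 0.404 to 1.97 in Dgcr8 KO, with Jund at 36.2 and 14.1. Only exonic reads were counted, and Jun, Junb, Jund and Ier2 have 1 exon against a median of 8. The part of this in their percentiles was not tested. For Egr1, every WT total library lay at or under 3 counts, and its 4sU level was at least 5.08-fold higher than its total level. For Fosb the same bound was at least 3.46-fold higher.

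**Figure D3:**
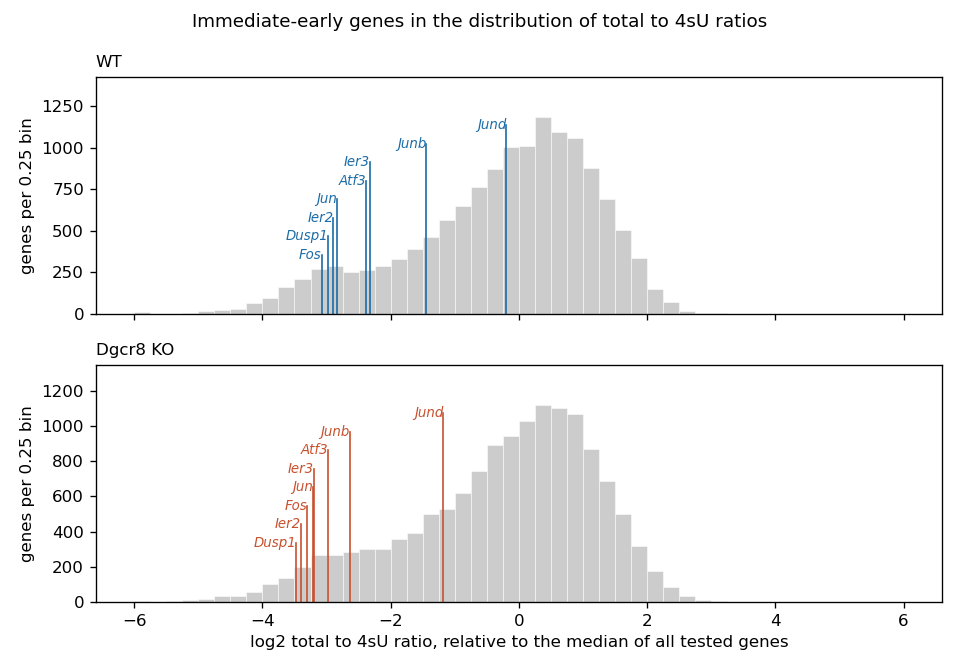
Number of genes (y axis, bins of 0.25) by log2 total to 4sU ratio relative to the median of 14033 genes (x axis) in WT and Dgcr8 KO, with lines at 8 members and the few values beyond 6 placed in the end bins. The members sit in the low shoulder of the distribution apart from Jund, which moves from -0.19 to -1.18, and Junb, which moves from -1.44 to -2.64.

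The test of the difference between genotypes asked whether total and nascent RNA changed by different amounts. It was largest for Junb and Jund. The interaction term was -1.28 for Junb (log2, SE 0.216, limma adjusted p = 7.12e-05) and -1.07 for Jund (SE 0.0977, limma adjusted p = 1.65e-09), and both were called. Ier3 at -0.96 (SE 0.308, limma adjusted p = 0.0298), Ier2 at -0.59 (SE 0.0929, limma adjusted p = 2.86e-05) and Dusp1 at -0.58 (SE 0.116, limma adjusted p = 5.15e-04) passed the adjusted p alone. Atf3 at -0.67 (limma adjusted p = 0.0998), Jun at -0.46 (limma adjusted p = 0.19) and Fos at -0.31 (limma adjusted p = 0.514) did not pass. The median over all genes was -0.09, and 6 of the 8 ESC markers also had a lower ratio at the adjusted p alone. The call of Jund was lost without Dgcr8 KO replicate 1 (-0.96), with DESeq2 (-0.99) and with RLE size factors (-0.98), and Junb was then the only call. Ier3 was called too without WT replicate 2 (-1.002) or without Dgcr8 KO replicate 3 (-1.12), and it missed the adjusted p without Dgcr8 KO replicate 1 (-0.77, limma adjusted p = 0.151), Dgcr8 KO replicate 2 (-0.997, 0.0717), WT replicate 1 (-0.95, 0.0718) or WT replicate 3 (-0.93, 0.0746). With no filter beyond 1 count Ier3 was at -0.94 (limma adjusted p = 0.106), and over all alternatives it passed the adjusted p in 10 of 17. With the 4sU and total library of an RNA sample as a replicate block, Ier3 (-1.001) was the third member called and Atf3 passed the adjusted p (-0.70, limma adjusted p = 0.036).

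The same ratios were formed in each RNA sample from its own pair of libraries. For Junb the log2 ratio relative to the median gene was -1.48, -1.33 and -1.47 in WT and -2.76, -2.54 and -2.63 in Dgcr8 KO. For Jund it was -0.25, -0.17 and -0.16 in WT and -1.42, -1.02 and -1.10 in Dgcr8 KO. The 3 Dgcr8 KO samples lay below the 3 WT samples for Jun, Junb, Jund, Ier2, Ier3 and Dusp1, each with a two-sided exact permutation p = 0.1, the smallest that 3 against 3 allow. Such a gap was seen in 15.2% of all genes. They overlapped for Fos (exact permutation p = 0.3) and Atf3 (exact permutation p = 0.2). The mean was lower in Dgcr8 KO for 8 of 8 members, against 49.5% of all genes, and Dgcr8 KO replicate 1 held the lowest value for all of them but Fos.

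**Figure D4:**
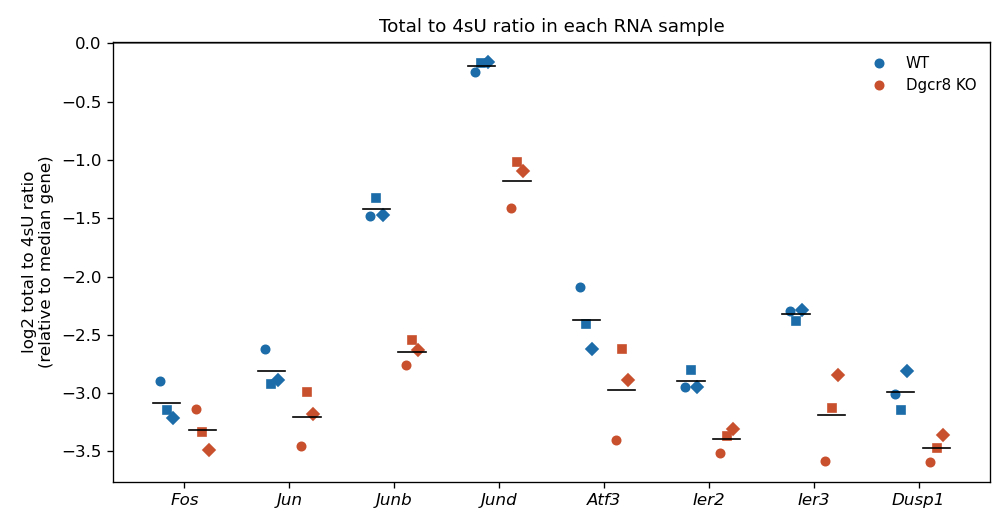
Log2 total to 4sU ratio relative to the median gene (y axis) for 8 members (x axis) in each of 3 WT (blue) and 3 Dgcr8 KO (orange) RNA samples, with circles, squares and diamonds for replicates 1, 2 and 3 and black lines for means. The genotypes overlap for Fos and Atf3 alone, and the widest gaps are those of Junb and Jund.

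Relative to the precision that voom expects at their counts, most members varied more within groups than the median gene did. The residual SD of the fit lay at percentile 99.5 of all genes for Junb, 96.8 for Jun, 95.3 for Ier2, 93.7 for Jund, 92.1 for Atf3 and 87.3 for Fos. Dusp1 at percentile 63.4, Ier3 at 43.7 and Fosb at 34.8 were lower on this scale, which does not rank raw spread. The Fosb value rests on few counts, and Fosb passed the filter through its Dgcr8 KO 4sU libraries alone. Dgcr8 KO replicate 1 had the highest 4sU level of its group for 9 of 10 members, all but Egr1. WT replicate 2 had the lowest 4sU level for 8 of 10 and the lowest total level for 7 of 10 members. Without Dgcr8 KO replicate 1 the nascent log2 changes of the 5 called members were 2.31 for Junb, 2.17 for Jun, 1.76 for Jund, 1.55 for Fos and 1.34 for Dusp1, and all 5 were still called.

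A stress list was examined beside the members, since heat, dissociation and amino acid stress can raise immediate-early genes. Of its 10 genes 9 passed the filter. None was called higher in Dgcr8 KO in either RNA by limma, and 3 were called lower in each. Over all genes 9.5% were called higher and 5.27% lower in 4sU RNA, and 9.33% and 7.83% in total RNA. At the adjusted p alone 2 were higher and 5 lower in 4sU RNA, and 1 was higher and 6 lower in total RNA. The shares over all genes were 28.3% and 28.0% in 4sU RNA, and 27.2% and 36.7% in total RNA. Chac1 (-2.97), Trib3 (-1.35) and Hspa1b (-1.08) were called lower in 4sU RNA, and Chac1 (-2.73), Trib3 (-1.85) and Atf4 (-1.14) in total RNA (log2 changes). The summed level of the 10 genes was 2757 to 2951 CPM in WT 4sU libraries and 2125 to 2515 CPM in Dgcr8 KO 4sU libraries. Atf4 was also called for a lower total to 4sU ratio (-1.04). It was the only ratio call among the 9 genes, with 0 called higher, against 0.969% lower and 0.791% higher over all genes. The part of stress or handling in the members' changes was not tested.

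A wider list of 47 other immediate-early genes was read the same way, to see how far the members stood for their class. In 4sU RNA, 41 passed the filter, 10 were called higher and 1 lower in Dgcr8 KO, and 25 were higher and 10 lower at the adjusted p alone. Over all genes these shares were 9.5% and 5.27%, and 28.3% and 28.0% at the adjusted p alone. Their median log2 change was 0.53, against -0.02 over all genes. The largest nascent rises were those of Bhlhe40, a repressor of the circadian clock (2.48), Rhob, a small GTPase (2.38), and Fosl2, a FOS paralogue (1.91). Dusp4, an ERK phosphatase related to Dusp1, was called lower (-1.42, limma adjusted p = 6.99e-04), in contrast to Dusp1 at 1.38. Dusp2, Egr2, Egr3, Egr4, Fosl1 and Nr4a3 did not pass the filter.

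In total RNA of the wider list, 6 of 41 genes were called higher and 4 lower, near the shares of 9.33% and 7.83% over all genes, with a median of 0.09 against -0.09. Fosl2 (1.84), Tiparp, a mono-ADP-ribosyltransferase (1.5005), and Klf2, a naive pluripotency factor (1.47), rose most. Dusp4 (-1.42), Ier5l, an Ier2 relative (-1.13), and Errfi1, an inhibitor of the EGF receptor (-1.12), fell most. For the total to 4sU ratio, 0 were called higher and 2 lower (0.969% over all genes), Maff (-1.56) and Bhlhe40 (-1.02), with a median of -0.27 against -0.09. At the adjusted p alone 12 of 41 had a lower ratio, against 11.1% of all genes, and 0 had a higher one. Total signal was called below 4sU signal for 35 of the 41 in WT and 38 in Dgcr8 KO, against 25.0% and 27.1% of all genes.

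**Figure D5:**
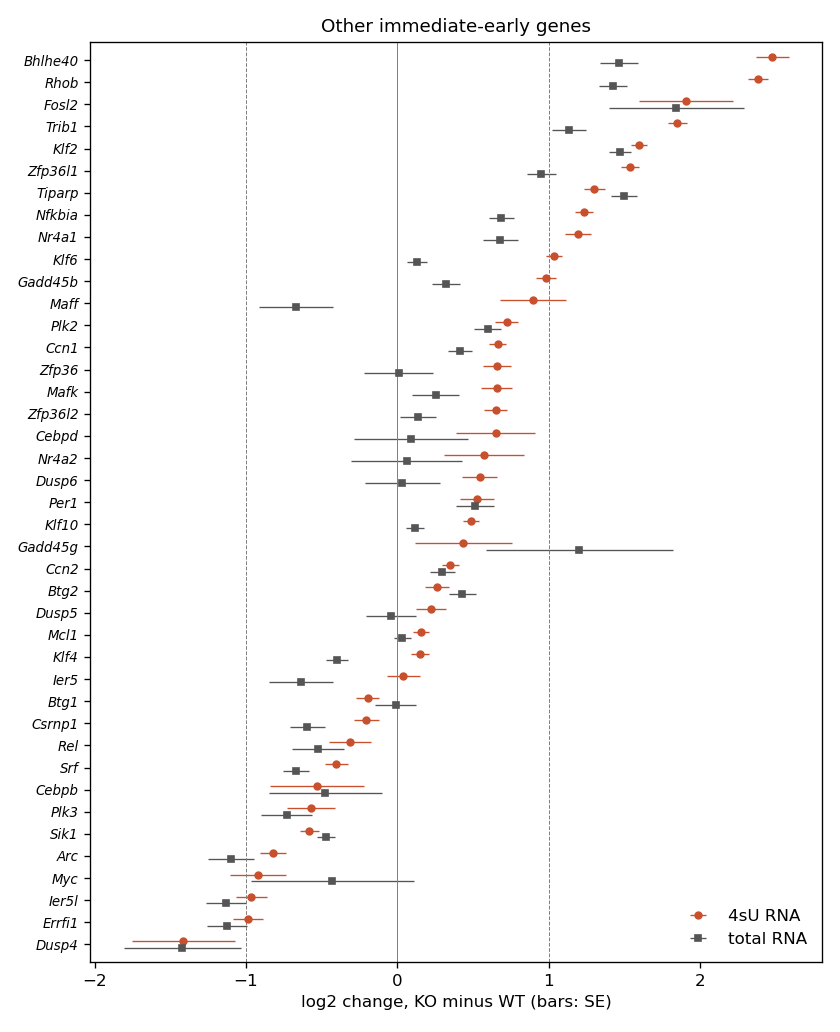
Log2 change between Dgcr8 KO and WT (x axis, bars of 1 SE) in 4sU RNA (orange circles) and total RNA (grey squares) for 41 other immediate-early genes, ordered by the 4sU change, with dashed lines at the limit of 1 in each direction. Orange points extend from -1.42 for Dusp4 to 2.48 for Bhlhe40, and for most genes the grey point lies to the left of the orange one.

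Among 16 upstream regulators, all of which passed the filter, none of the genes for the kinases ERK, JNK and p38 was called, although Mapk14, which encodes p38 alpha, fell in total RNA (-0.76, limma adjusted p = 2.23e-12) and in its ratio (-0.50, limma adjusted p = 2.34e-04). Elk3, an SRF partner of the ternary complex family, was called higher in 4sU (1.80, limma adjusted p = 7.47e-10) and total RNA (1.32). Elk4, of the same family, was called higher in total RNA (1.82, limma adjusted p = 1.06e-15) and for its total to 4sU ratio (1.38). Srf itself fell in 4sU (-0.40, limma adjusted p = 2.95e-05) and total RNA (-0.67, limma adjusted p = 4.48e-08), both short of the limit. Of the 16, 1 was called higher in 4sU RNA and 2 in total RNA, against 9.5% and 9.33% of all genes. For the ratio 1 was called higher and 0 lower, against 0.791% and 0.969% of all genes. At the adjusted p alone 6 of 16 were higher and 3 lower in 4sU RNA, and 7 and 7 in total RNA. Over all genes 28.3% were higher and 28.0% lower in 4sU RNA, and 27.2% and 36.7% in total RNA.

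Of 8 genes for AU-rich element binding proteins, Zfp36l1, a decay factor of the tristetraprolin family that is itself on the wider list, was the only call, higher in 4sU RNA (1.54, limma adjusted p = 1.83e-19). Over all genes 9.5% were called higher in 4sU RNA. At the adjusted p alone 3 of the 8 were higher and 4 lower in 4sU RNA, against 28.3% and 28.0% of all genes. In total RNA 1 was higher and 3 lower, against 27.2% and 36.7% of all genes. Elavl1, whose protein protects AU-rich mRNAs, fell by 0.66 in 4sU RNA and by 0.88 in total RNA (log2), below the limit.

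For each tested member the most similar gene was sought by Pearson's r of log2 CPM over the 12 libraries. These were Fam43a for Fos (0.997), Gprc5a for Jun (0.998), Ksr1 for Junb (0.994), Pdgfa for Jund (0.983), Zfp36l2 for Atf3 (0.993), Med7 for Ier2 (0.999), Zbtb43 for Ier3 (0.996), Irs2 for Dusp1 (0.999) and Gm47092 for Fosb (0.979). The 12 libraries share 2 RNA types and 2 genotypes, so these values are descriptions only. The Fosb value also rests on few reads, at most 2 counts in any WT total library. Fosb passed the filter through its Dgcr8 KO 4sU libraries alone. Gprc5a, a G protein-coupled receptor, had changes close to those of Jun, with 2.14 in 4sU and 1.85 in total RNA. Ksr1, a scaffold of the MAP kinase cascade, changed by 1.12 and 0.59, in the same order as Junb. Pdgfa, a growth factor, changed by 1.15 and 0.68, beside 1.84 and 0.76 for Jund.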

How the data were processed

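The deposited table holds raw read counts per gene for 12 libraries, with exon length (in bases) as a further column. Per the file headers and the labels, the authors trimmed reads with Cutadapt 1.14, aligned them uniquely to mm10 with STAR 2.5.3a and counted exonic reads by strand with featureCounts 1.5.3 against GENCODE M14 without rRNA genes. Reads in introns were thus not counted, and no molecular identifiers were used, so a floor of 3 counts covers counting error alone. The 92 spike-in rows held 1 count in all and were left out, so no absolute scaling was possible.

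Of 51559 identifiers, 51274 matched GENCODE M21 symbols. Counts were scaled by TMM in edgeR 4.0.16 and fitted with voom in limma 3.58.1 (R 4.3.3), following the design of the study: library type, genotype and their interaction, 3 CPM in at least 3 libraries, an adjusted p (over all 14033 genes) below 0.05 and a log2 change beyond 1 in either direction. TPM used the deposited exon lengths. Samples were grouped by their titles, which the genotype labels match, although the source names of the knockout libraries read DDX8KO. Alternatives were the quasi-likelihood test of edgeR, DESeq2 1.42.0, limma-trend, sample weights, other scalings and filters, replicate blocks and leaving out each RNA sample with both its libraries. Scripts were tested on simulated counts.

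The members, lists and tests were chosen with earlier results of these data known. Named were all members, Dgcr8, of the wider list the 3 largest called rises and falls in 4sU RNA, total RNA and the ratio, of the other lists up to 5 called genes per contrast, and for each tested member its most correlated gene. Srf, Mapk14, Elavl1, Pdgfra, Otx2 and Pou3f1 were named after their values were seen, as were Dusp2, Egr2, Egr3, Egr4, Fosl1 and Nr4a3 as the untested members of the wider list. The 4sU and total library of an RNA sample are paired, since the sample was split. Their deviations from the group means correlated at 0.011 to 0.0783 across genes. Same-numbered samples of the 2 genotypes correlated at -0.0699 to 0.0699 and were not treated as pairs.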

Additional observations from a re-analysis of the deposited data

Results flagged for a closer look

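For 5 members the genotype effect differed between total and 4sU RNA by the interaction term of limma. The difference, total minus 4sU on the log2 scale, was -1.28 for Junb, -1.07 for Jund, -0.96 for Ier3, -0.59 for Ier2 and -0.58 for Dusp1. Of all genes, 11.1% had a lower ratio at the adjusted p alone, and the Ier3 value passed in 10 of 17 alternatives. Jund started from a WT ratio close to that of the median gene, at -0.19, whereas Ier2 and Dusp1 were already at -2.89 and -2.98 in WT.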

How the results depend on the processing

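Of 762 values of single members under the alternatives, 737 kept their direction and their side of the adjusted p threshold. Of the others, 14 no longer passed it, 10 newly passed it and 1 turned. The limit on the change played no part in these counts. The ratio calls of Jund lost with DESeq2 and with RLE size factors are thus counted among the 737. The 762 values include those of Fosb. Where the filter of 3 CPM let Fosb in through its Dgcr8 KO 4sU libraries alone, its values are no test of robustness. The value that turned was the total to 4sU change of Fosb, which was -0.35 with limma-trend and positive otherwise, the WT total libraries being at or under 3 counts. It is printed to identify the reversal and is no estimate of a change. The cause was not tested. Members called in 4sU RNA numbered 4 with 3 CPM required in all 12 libraries, which drops Fos and Ier3, and 5 or 6 without each RNA sample in turn. Dropping the limit on the change raised the members called to 6 in total RNA and to 5 for the ratio, by construction. In total RNA 5 of them were higher and 1 lower, against 27.2% and 36.7% of all genes. For the ratio all 5 were lower, against 11.1% of all genes. For the ratio, 1 member was called by DESeq2 and with RLE size factors, where Jund was at -0.99 and -0.98, and from 1 to 3 were called without each RNA sample in turn. With a replicate block by number, 2 members were called for the ratio and Jun (-0.52, limma adjusted p = 0.034) and Atf3 (-0.71, limma adjusted p = 0.0272) passed the adjusted p. With a replicate block by RNA sample, 3 were called. The median ratio of the members moved with the genes that set the reference. In WT it was -2.83 against protein-coding genes, -2.04 with no filter, -2.88 with 3 CPM in all libraries and -2.27 with edgeR and no filter, the last chosen after seeing the data. In Dgcr8 KO it was -3.42 against protein-coding genes, -2.61 with no filter and -2.90 with edgeR and no filter. With at most 7 counts in a total library, Egr1 and Fosb are limited most by depth, and their total RNA cannot be compared between genotypes at this depth.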
